A study of Mus musculus with 2 samples.

Results

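The ABC transporter genes were compared between mouse hepatoblasts overexpressing Srf and hepatoblasts expressing EGFP. Members were taken by name, as every gene with a probe set that carried exactly 1 symbol made of Abc, a subfamily letter from a to g and a digit. This gave 48 genes with 1 probe set each, out of 22180 genes on the array. Hepatoblasts are the fetal liver progenitors of hepatocytes and bile duct cells. The cultures came from fetal liver, and per the methods the mice carried a Nanog-GFP transgene and the cells were expanded from a clone, so they model 1 clonal isolate. Both groups were grown on type IV collagen in medium with serum, insulin, dexamethasone, nicotinamide, HGF and EGF. The control group had received EGFP by retrovirus and the other group Srf, a transcription factor of cytoskeletal and growth-response genes, and the methods describe puromycin selection of infected cells. Whether the line with inducible reprogramming factors was used, the time between infection and harvest and the number of cultures per array are not given in the sources used here.

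Each group had 1 array and no replicates, so the spread between cultures is unknown, nothing could be tested against it and no p-value is given. Precision is limited by this number of arrays. Values are log2 signals, and a difference is always the Srf array minus the EGFP array. A gene was called higher or lower at 1.5-fold, the size the study used for these cells. The label was borne out by Srf itself, at 8.57 with EGFP and 12.15 with Srf, and Acta2, a smooth muscle actin gene and Srf target, stood at 7.46 and 10.73. All 12 hepatoblast markers examined were above a silent level, defined as the 95th percentile (5.75) of 1105 olfactory receptor genes. Of the 12, Epcam (2.20-fold) and Ttr (1.75-fold) were lower and Afp (1.78-fold) was higher, and their part in the ABC values was not tested. Markers of stellate cells and fibroblasts, endothelium, red and white blood cells summed to slightly less with Srf (72.0 and 70.3, 44.5 and 43.8, 17.2 and 17.0, and 50.2 and 49.2 on the log2 scale). Of these markers Pdgfrb (2.11-fold), Col1a2 (2.10-fold) and Cd14 (1.60-fold) were lower past the threshold and 0 were higher. Among genes with 2 probe sets above that level (735 genes), the differences of the 2 probe sets varied around their gene's mean with an SD of 0.21, and this is the only measure of error within these arrays.

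ABC transporters bind and hydrolyse ATP to move substrates across membranes. In hepatocytes they pump bile salts, phospholipid, sterols and conjugated drugs across the canalicular membrane into bile, export conjugates and cyclic nucleotides across the basolateral membrane towards blood, load cholesterol onto lipoproteins, and carry fatty acids and porphyrins into organelles. Subfamilies E and F keep the ATP-binding domains but have no membrane span and act on ribosomes.

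The differences were small for most of the family and were largest among drug and conjugate exporters. Of the 48 genes, 2 were higher with Srf by 1.5-fold or more, Abcc4 and Abcc1, and 0 were lower by as much. Over all 22180 genes the shares were 1.34% higher and 1.10% lower, and 2 genes are too few to set the family apart from these shares. The median log2 difference was -0.01 for the ABC genes and -0.01 for all genes, with 23 ABC genes above 0 and 25 below 0. Of these ABC genes, 6 (none over 0.04 in size as deposited) switched sign under some scaling of the arrays. In 35 members the difference was under 0.25 in size.

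**Figure D1:**
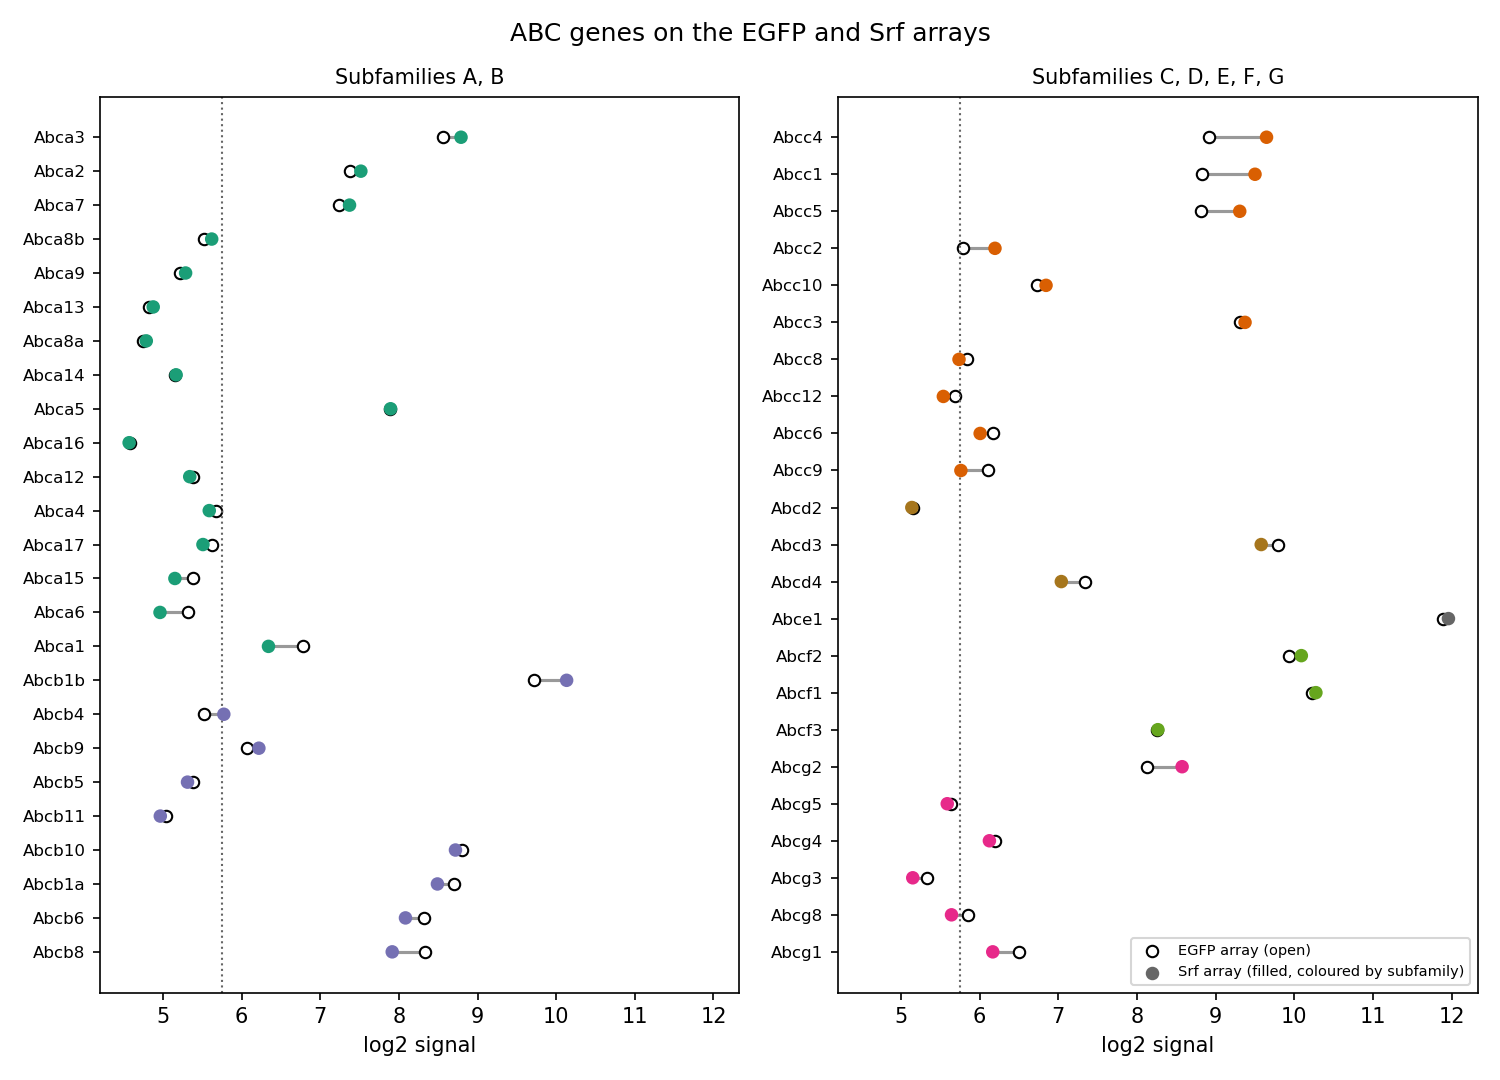
Log2 signal of each of the 48 ABC genes on the EGFP array (open points) and the Srf array (filled points, coloured by subfamily), 1 array per group and no error bars. The dotted line marks 5.75, the 95th percentile of olfactory receptor genes. Abcc4, Abcc1 and Abcc5 have the widest steps upward and Abca1 and Abcb8 the widest downward, and many subfamily A genes lie left of the line.

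Many members could not be read above the array's floor. The mean of both arrays exceeded the silent level in 29 of 48 members, and 3 of 48 were below the 20th percentile of both arrays. Of the 29 brighter members, 2 were higher by 1.5-fold or more against 2.07% of all 13456 genes above that level, and 0 were lower by as much against 1.77%. At a smaller size, a log2 difference of at least 0.32, 6 of the 29 were higher and 4 were lower, against 8.01% and 7.47% of those genes. Over all 48 members the counts at 0.32 were 6 and 5, against 5.29% and 5.28% of all genes. The 6 higher genes were Abcc4, Abcc1, Abcc5, Abcg2, Abcb1b and Abcc2, and each of them exports drugs or conjugates. This class was named with the values known. Abcc3 (0.07), Abcc10 (0.12), Abcb1a (-0.21) and Abcc12 (-0.15), also listed as multidrug pumps, did not reach this size.

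**Figure D2:**
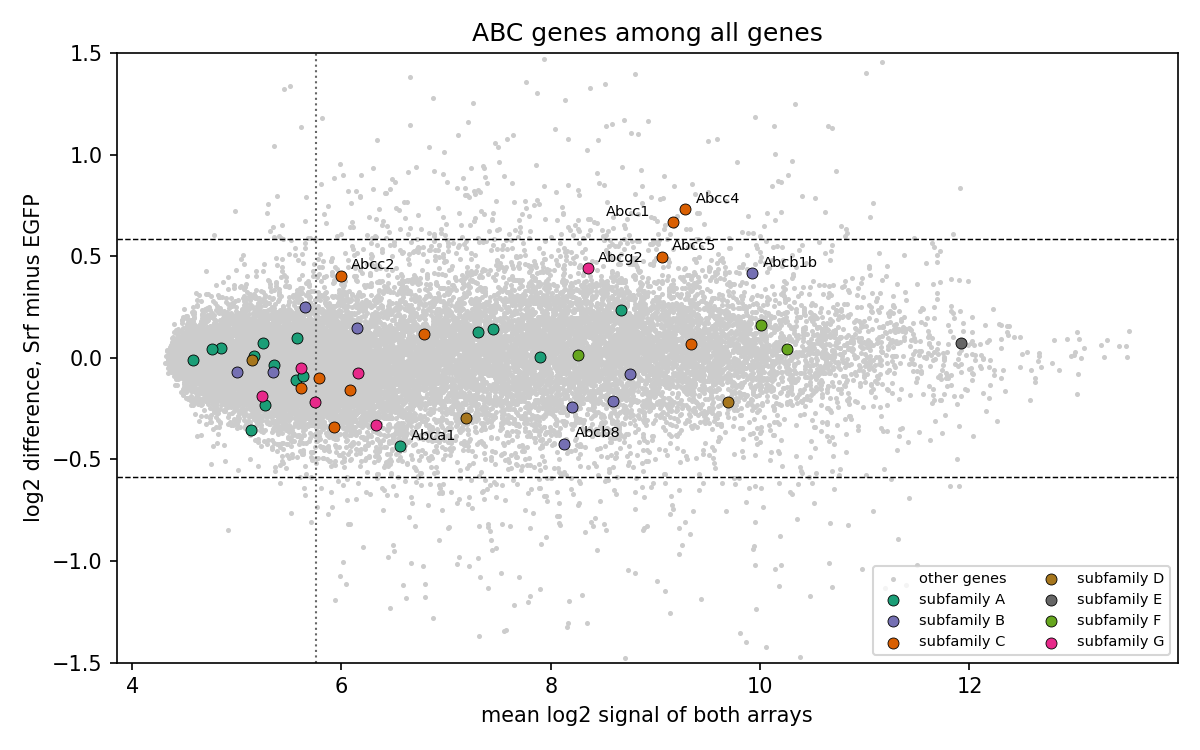
Difference on the log2 scale (vertical axis, Srf minus EGFP) against the mean log2 signal of both arrays for each gene. Grey points are other genes, of which 28 lie beyond the axis limits of 1.5, coloured points are the ABC genes by subfamily, dashed lines mark 1.5-fold and the dotted line the silent level of 5.75. Abcc4 and Abcc1 are the members above the upper dashed line.

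Exporters of the basolateral membrane, all in subfamily C, held the largest differences. Abcc4 (Mrp4, probe set 17309420), which exports cyclic nucleotides, prostaglandins and, together with glutathione, bile acids, was 8.92 with EGFP and 9.65 with Srf. The log2 difference was 0.73, or 1.66-fold higher, and 98.9% of genes above the silent level had a smaller signed difference. Abcc1 (Mrp1, probe set 17323138), an exporter of glutathione conjugates and leukotriene C4, was 8.83 and 9.50, a difference of 0.67 or 1.59-fold higher. Both differences exceeded the SD of 0.21 of probe sets around their gene's mean, while the spread between cultures is unknown. For genes above the silent level, the central 95% of differences ran from -0.50 to 0.55. Abcc5 (Mrp5), another exporter of cyclic nucleotides, was 8.81 and 9.31 (1.41-fold higher) and so lay under the threshold.

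The other basolateral exporters differed little. Abcc3 (Mrp3), an exporter of glucuronides that hepatocytes raise in cholestasis, was 9.31 with EGFP and 9.37 with Srf, a log2 difference of 0.07. Abcc10 (Mrp7) differed by 0.12, and Abcc6, which releases ATP from hepatocytes and guards against ectopic mineralisation, by -0.16. Over these 6 genes, 5 lay above 0 and the median was 0.31, against 0.00 over all genes above the silent level. The split within 1 subfamily was therefore wide, from 0.73 for Abcc4 down to -0.34 for Abcc9, which encodes a regulatory subunit of ATP-sensitive potassium channels and stood at 6.10 and 5.76. Abcc8, the other regulatory subunit of these channels, was 5.84 and 5.74, close to the silent level on both arrays. Abcc12 was 5.69 and 5.54, below it.

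At the canalicular membrane some pumps stood above the silent level and others did not. Abcg2 (Bcrp), a pump of drugs, porphyrins and urate, was 8.13 with EGFP and 8.57 with Srf (log2 difference 0.44, 1.36-fold higher). Abcc2 (Mrp2), which secretes bilirubin glucuronides into bile, was 5.79 and 6.19 (0.40, 1.32-fold higher), just above the silent level. Neither reached 1.5-fold. By contrast Abcb11 (Bsep), the bile salt export pump of hepatocytes, was 5.04 and 4.97, below the silent level on both arrays, so no change in it could be seen. Abcb4, the phosphatidylcholine floppase of bile, was 5.52 and 5.77, with a difference of 0.25 at this floor.

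The P-glycoprotein genes, which in mice are a pair of neighbouring genes where humans have a single one, gave opposite signs. Abcb1b was 9.72 with EGFP and 10.13 with Srf, a log2 difference of 0.42 or 1.33-fold higher. Abcb1a was 8.70 and 8.49, a difference of -0.21. Both genes were bright, neither reached 1.5-fold, and the difference of Abcb1a was about as large as the SD between probe sets of a gene. The genes are close in sequence, and whether their probe sets share signal was not tested. Over the 10 genes listed as multidrug pumps, which include the Abcc exporters above, 8 lay above 0, 6 were higher by at least 0.32 and 0 lower by as much, with a median of 0.41. Over all genes 5.29% were higher by this size, and 10464 of 22180 lay above 0. Of the 10, 9 were above the silent level, where 8.01% of genes were higher by this size and 6794 of 13456 lay above 0. The list was drawn up with earlier results of these data known. It leaves out Abcc6 and Abcb5, which differed by -0.16 and -0.07. Of 9 markers of mesothelium, 8 lay above 0 and 2 passed 1.5-fold upward, Upk1b (log2 difference 1.96) and Krt14, while Wt1 differed by -0.25, and the sum of their log2 values went from 67.2 to 71.6, with Lrrn4 below the silent level. Their part in the pump values was not tested, and in a bulk culture more cells of a type and more RNA per cell cannot be told apart.

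Promoter sequence is shown for the exporters with the largest differences that have a window in the RefSeq table, Abcc4 and Abcg2, for the P-glycoprotein pair whose signs were opposite, and for Abca1, the lowest member. Each window runs from 250 bases before to 50 bases after the start of the gene, 5′ to 3′, in build GRCm38.p6. They lie at chr14:118706170-118706469 (minus strand) for Abcc4, chr6:58640296-58640595 (plus) for Abcg2, chr5:8797897-8798196 (plus) for Abcb1b, chr5:8566841-8567140 (plus) for Abcb1a and chr4:53159846-53160145 (minus) for Abca1. Abcg2 has 3 windows and Abcc4 has 2, and the one with most motif matches is shown. Capitals mark matches on either strand to the motifs described after the sequences, which were chosen after promoters had been read.
Abcc4: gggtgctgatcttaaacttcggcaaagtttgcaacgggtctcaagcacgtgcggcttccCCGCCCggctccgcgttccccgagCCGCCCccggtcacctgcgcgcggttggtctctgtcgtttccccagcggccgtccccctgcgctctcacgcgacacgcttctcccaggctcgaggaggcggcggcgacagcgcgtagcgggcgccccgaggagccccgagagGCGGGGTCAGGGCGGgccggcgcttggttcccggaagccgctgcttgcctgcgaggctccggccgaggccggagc
Abcg2: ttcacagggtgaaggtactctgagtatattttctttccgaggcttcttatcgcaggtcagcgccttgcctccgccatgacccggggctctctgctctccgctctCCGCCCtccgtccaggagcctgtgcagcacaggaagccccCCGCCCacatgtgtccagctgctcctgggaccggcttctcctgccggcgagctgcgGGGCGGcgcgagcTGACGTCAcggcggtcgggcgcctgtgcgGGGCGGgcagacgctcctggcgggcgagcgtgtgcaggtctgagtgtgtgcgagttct
Abcb1b: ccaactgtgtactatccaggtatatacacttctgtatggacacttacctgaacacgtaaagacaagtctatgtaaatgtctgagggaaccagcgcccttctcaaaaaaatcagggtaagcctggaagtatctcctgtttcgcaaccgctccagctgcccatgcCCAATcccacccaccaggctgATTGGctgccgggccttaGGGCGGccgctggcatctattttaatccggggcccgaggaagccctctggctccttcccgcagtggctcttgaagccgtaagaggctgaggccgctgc
Abcb1a: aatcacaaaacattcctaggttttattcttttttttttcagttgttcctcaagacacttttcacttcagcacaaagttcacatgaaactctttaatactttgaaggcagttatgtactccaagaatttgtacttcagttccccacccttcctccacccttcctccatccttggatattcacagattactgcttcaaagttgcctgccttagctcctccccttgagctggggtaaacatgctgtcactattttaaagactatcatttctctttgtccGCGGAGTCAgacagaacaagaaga
Abca1: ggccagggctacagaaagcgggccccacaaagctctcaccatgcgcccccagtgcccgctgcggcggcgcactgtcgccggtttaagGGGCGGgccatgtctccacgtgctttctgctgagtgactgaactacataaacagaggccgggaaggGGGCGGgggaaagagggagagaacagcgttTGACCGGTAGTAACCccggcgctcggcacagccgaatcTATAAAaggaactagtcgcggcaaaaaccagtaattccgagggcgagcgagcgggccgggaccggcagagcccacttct

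Windows were found for 38 of the 48 genes, 45 in all, and motifs were searched on both strands. The CArG box, to which Srf binds, had 0 matches in the 45 windows, where 1.63% of all 32851 windows hold one. The Srf element was thus not spelled in the windows of Abcc4, Abcg2 or Abcb1b, which says only that these letters are not in this stretch. The GC box GGGCGG was in 21 of the 45 windows, or 46.7%, against 35.7% of all windows. It occurs in the windows of Abcc4, Abcg2, Abcb1b and Abca1 shown above and not in that of Abcb1a. The core TGACNNNGC of the element bound by Nrf2, a factor of the oxidative stress response, was in 15.6% of ABC windows and 12.4% of all windows. It lies at -25 to -17 of the Abcc4 start site on the reverse strand, next to a GC box, and at 26 to 34 of Abcb1a, also on the reverse strand. The cAMP element TGACGTCA was in 2 of the 45 ABC windows (4.44%), at -37 to -30 of Abcg2 and -10 to -3 of Abce1, and in 1.79% of all windows. The letters CCAAT, present in 37.4% of all windows, occur at 2 places in the Abcb1b window and at 0 in the Abcb1a window, and 55.0% of bases were G or C in the former and 40.3% in the latter. TATAAA, in 13.6% of all windows, stands at -29 to -24 of Abca1. Whether any of these motifs, or the base content, bears on the differences between the arrays was not tested.

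Of 6 genes of sterol and phospholipid efflux 5 lay below 0 and Abca7 above it, and 0 reached 1.5-fold. Abca1 (probe set 17425301), which moves cholesterol and phospholipid from cells to apolipoprotein A-I and so forms nascent high-density lipoprotein, was 6.78 with EGFP and 6.34 with Srf. Its log2 difference of -0.44 (1.35-fold lower) was the lowest of the 48, and 3.73% of genes above the silent level lay lower still. Abcg1, which passes cholesterol to mature lipoprotein particles, was 6.50 and 6.17, a difference of -0.33 or 1.26-fold lower. Neither was called at 1.5-fold.

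The remaining sterol and phospholipid transporters were dim or differed little. Abcg5 and Abcg8, which together form the canalicular pump for cholesterol and plant sterols, were 5.64 and 5.86 on the EGFP array and 5.59 and 5.64 on the Srf array. Both had means below the silent level. Abcg4, a relative of Abcg1 in brain, was 6.20 and 6.12, and Abca7, a relative of Abca1, was 7.24 and 7.37, with a difference of 0.13. The median of the 6 genes was -0.15.

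Abca1, Abcg1, Abcg5 and Abcg8 are known targets of the liver X receptors, which bind oxysterols and act as heterodimers with the retinoid X receptor on direct repeats spaced by 4 bases. The exact pair of AGGTCA repeats was in 0 of the 45 ABC windows and 0.0152% of all windows. A looser form, GGTTA followed after 5 bases by GGTCA, was searched after the Abca1 promoter had been read. It occurs in the Abca1 window at -67 to -53 on the reverse strand, shown above in capitals as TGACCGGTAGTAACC, and in 0.0487% of all windows. Nr1h3, which encodes liver X receptor alpha, was 6.75 with EGFP and 6.34 with Srf (log2 difference -0.42), a value named after it was seen. Nr1h2 on the same list had no value. The retinoid X receptor genes Rxra and Rxrb differed by 0.03 and -0.21. Pltp (0.32), Apoe (0.26) and Fasn (0.10) on this list lay above 0. Of 12 receptor and target genes on the list with a value that are not ABC genes, Nr1h3 included, 5 lay above 0 and 7 below. Their median was -0.07. Of the 12, 1 passed 1.5-fold downward and 1 upward. These were Scd1, a fatty acid desaturase (3.59-fold lower, 11.96 and 10.12), and Lpl, lipoprotein lipase (1.51-fold higher, 5.06 and 5.66, below the silent level on both arrays).

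Sterol supply showed larger differences than sterol efflux, but at higher signal. Means of both arrays ran from 8.42 (Mvk) to 11.39 (Hmgcs1) for the supply genes with a value. For the efflux genes they ran from 5.61 (Abcg5) to 7.31 (Abca7). How far signal level bears on the sizes was not tested. Of 14 genes of cholesterol synthesis and sterol sensing with a value, 13 passed 1.5-fold downward and 0 upward, and the median log2 difference was -1.02, a pattern that was known before the list was written. They ranged from Pmvk, of the mevalonate pathway (2.78-fold lower), to Sqle, squalene epoxidase (log2 difference -0.59), while Srebf2, the factor that drives these genes, differed by -0.49. Apoa1, the acceptor for cholesterol exported by Abca1, was 9.57 and 8.47 (2.14-fold lower).

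**Figure D3:**
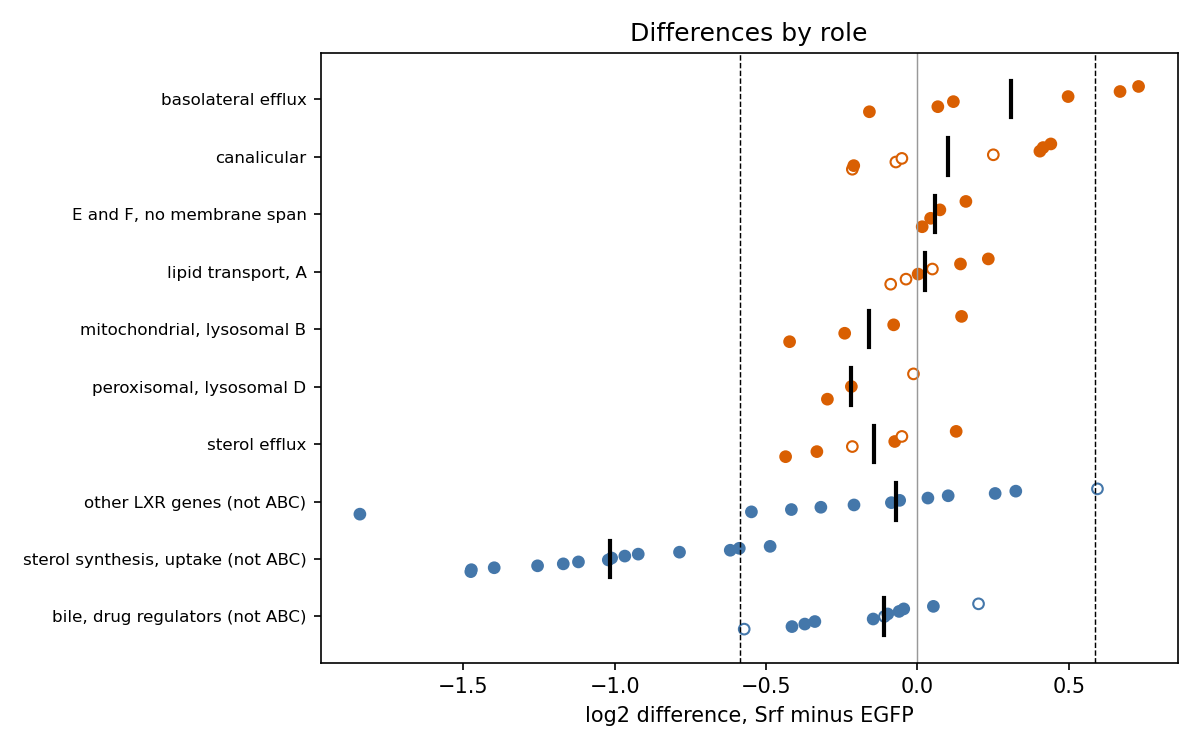
Difference on the log2 scale (Srf minus EGFP) of each gene, by role, 1 point per gene and 1 array per group. Black bars are medians, dashed lines mark 1.5-fold, filled points have a mean above the silent level and open points do not. Orange rows are ABC genes (Abcg5 and Abcg8 stand in both the canalicular and the sterol row) and blue rows are other genes. Of the rows as drawn, the basolateral exporters have the highest median, 0.31, and the sterol synthesis genes the lowest, -1.02. The canalicular row holds 4 open points, and its 4 filled points have a median of 0.41.

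Regulators that set ABC expression in liver were measured alongside. Of 11 nuclear receptors and other factors for bile acids and drugs, 0 passed 1.5-fold in either direction, 9 lay below 0 and the median was -0.11. Nr1i2, the pregnane X receptor that induces Abcb1 and Abcc2 genes, was 5.95 and 5.38 (1.49-fold lower) with a mean below the silent level. Nr1h4, the bile acid receptor FXR that induces Abcb11 and Abcb4, was 9.05 and 8.64 (log2 difference -0.41), and Nfe2l2, which encodes Nrf2, was 10.53 and 10.43. These regulators were named after their values were seen. Among partners that tether canalicular pumps to the cytoskeleton, radixin (Rdx), on which canalicular Abcc2 depends in mice, was 10.85 and 10.96. Slc9a3r1, a scaffold protein of the apical membrane, was 9.79 and 9.47, and Ezr, which encodes ezrin, differed by 0.24.

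Among 7 transporters of organelles 0 passed 1.5-fold in either direction. In mitochondria, Abcb8 was 8.34 with EGFP and 7.92 with Srf, a log2 difference of -0.42 or 1.34-fold lower, the second lowest of the 48. Abcb10, needed for haem synthesis in red cell precursors, was 8.80 and 8.72, and Abcb6, a porphyrin carrier, was 8.32 and 8.08 (-0.24). Abcb9, a lysosomal peptide carrier, was 6.07 and 6.22 and was the 1 of these with a positive sign.

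The 3 measured subfamily D genes lay below 0, although Abcd2, at -0.01, switched sign under some scaling of the arrays. Abcd3, a peroxisomal carrier of branched-chain acyl-CoA and bile acid precursors, was 9.80 and 9.58 (-0.22). Abcd4, which takes part in lysosomal release of vitamin B12, was 7.34 and 7.04 (-0.30, 1.23-fold lower). Abcd2, a peroxisomal carrier of very long chain acyl-CoA, was 5.15 and 5.14, below the silent level. Pex19, the receptor that brings such membrane proteins to peroxisomes, was 9.01 and 8.79. With differences near the SD between probe sets of a gene, these values are small.

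Subfamilies E and F were nearly the same on both arrays. Abce1, which recycles ribosomes after termination, was 11.89 and 11.96. Abcf1, a partner of initiation factor eIF2, was 10.23 and 10.28, Abcf2 was 9.93 and 10.09, and Abcf3 was 8.25 and 8.27. Their differences ran from 0.02 to 0.16, and that of Abcf3 switched sign under some scaling.

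In subfamily A, 5 of 16 genes were above the silent level. Besides Abca1 and Abca7 these were Abca3, the lipid transporter of lung surfactant bodies (8.56 and 8.79, difference 0.23), Abca2, a transporter of late endosomes (7.37 and 7.52, difference 0.14), and Abca5 (7.89 and 7.89). The median of the 16 was 0.01. Abca6, of a cluster of related genes on chromosome 11, was 5.32 and 4.96 (1.28-fold lower) at the floor of the array, and its cluster mates Abca8a, Abca8b and Abca9 differed by 0.05 to 0.10. Abca12, of skin lipid granules, Abca4, of photoreceptors, Abca13 and the genes Abca14 to Abca17 were below the silent level, with differences from -0.23 to 0.05. Abcb5 and Abcg3 were also below it, at 5.38 and 5.31 and at 5.34 and 5.15.

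By subfamily, the median differences were 0.01 for A, -0.07 for B, 0.09 for C, -0.22 for D, 0.04 for F and -0.13 for G, with Abce1 alone in E at 0.07. Subfamilies A, B, C and G each held members on either side of 0, from 0.23 (Abca3) to -0.44 (Abca1) in A, 0.42 (Abcb1b) to -0.42 (Abcb8) in B, 0.73 (Abcc4) to -0.34 (Abcc9) in C and 0.44 (Abcg2) to -0.33 (Abcg1) in G. By role, 8 of 10 multidrug genes and 4 of 8 canalicular genes lay above 0. Of the 4 canalicular genes above the silent level, 3 lay above 0, with a median of 0.41. Below 0 lay 5 of 6 sterol genes and 3 of 4 mitochondrial and lysosomal B genes, as did 11676 of all 22180 genes. The lists are short, share members and were drawn up with results of these data known, and 2 members reached 1.5-fold.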

How the data were processed

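Total RNA of each group was amplified with a whole-transcript kit and hybridised to an Affymetrix mouse gene array. The authors deposited 1 log2 value per probe set, and the log base was inferred from the range (4.28 to 13.63), so every fold rests on that reading. The methods name GeneSpring with percentile shifts and removal of low signals. The summarisation of probes was not stated in those sources. Medians were 5.88 (EGFP) and 5.84 (Srf).

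Probe sets were named from the platform annotation. Of 34351, 23521 had 1 symbol, 1820 several and 9010 none listed. Probe sets of a gene were averaged, giving 22180 genes. All 48 members matched a RefSeq gene of the same symbol by Entrez identifier. The count of members used no filter on dim genes, and 45 members passed the 20th percentile on either array. No test across samples was possible with 1 array per group, and intervals need replicates.

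The members and all gene lists were chosen with earlier results of these data known. Members named in the text are those past a log2 difference of 0.32, the extremes of each subfamily and the members of the lists by role, and further members were named to complete the account. Genes that are no members were named at 1.5-fold, unless stated. Srebf2, Rxra, Rxrb, Pltp, Apoe, Fasn, Pex19, Rdx, Slc9a3r1, Ezr, Tap1, Tap2, Cftr, Kcnj8, Kcnj11, Wt1 and Lrrn4 were named as well, all under 1.5-fold. Alternatives were 4 scalings of the arrays (median centring, a common 75th percentile, quantile normalization and lowess with span 0.3), 3 filters on dim genes, the brightest probe set, probe sets with several symbols, and other fold thresholds. Promoter windows came from RefSeq. Tools were Python 3.11.15, numpy 2.4.6, pandas 2.3.3 and statsmodels 0.14.6.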

Additional observations from a re-analysis of the deposited data

How the results depend on the processing

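The count of ABC genes at least 1.5-fold higher stayed at 2, and that of lower genes at 0, under each of the 4 scalings, the 3 filters on dim genes, the brightest probe set and the use of probe sets with several symbols. The last 2 left the members as they were by construction, since each has 1 probe set and 0 probe sets with several symbols carry an ABC symbol. The counts moved with the threshold itself: at 2-fold 0 genes were higher, and at a log2 difference of 0.32, 6 were higher and 5 were lower. Over the scalings Abcc4 ranged from 1.62-fold to 1.70-fold and Abcc1 from 1.55-fold to 1.63-fold higher. The sign of 6 members was not the same under every scaling, namely Abca5, Abca12, Abca14, Abca16, Abcd2 and Abcf3. None of these differed by more than 0.04 in the values as deposited. The median of the family ran from -0.03 to 0.03 over the scalings, beside -0.02 to 0.03 for all genes. No paired analysis was possible because each group has 1 array. Leaving out a replicate was not possible for the same reason. Signal over background limits 19 members, whose means were not above the level of olfactory receptor genes.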

Other observations

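ABC proteins whose symbols do not follow the naming rule were measured too. Tap1 and Tap2 form the peptide carrier of antigen presentation. They were 7.31 and 5.47 on the EGFP array and 7.11 and 5.37 on the Srf array, with Tap2 below the silent level on both. Cftr, the chloride channel of bile duct epithelium, was 4.76 and 4.85, also below the silent level. Kcnj8 and Kcnj11, the pore subunits that pair with Abcc8 and Abcc9, were 5.83 and 6.42 on the EGFP array and 5.96 and 6.12 on the Srf array. None of these reached 1.5-fold.

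Of 10 pairs of ABC genes that are next to each other among protein-coding genes, 5 had differences of the same sign and 5 of opposite sign. The windows of Abcg5 and Abcg8, which are transcribed away from each other, overlap by 209 bases, and both genes lay below 0, at -0.05 and -0.22. Abcb1b and its neighbour Abcb4 lay above 0, at 0.42 and 0.25, beside Abcb1a at -0.21. In the chromosome 11 cluster Abca6 was at -0.35 between Abca9 at 0.07 and Abca5 at 0.00.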
